A study of Mus musculus with 27 samples.

Results

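The genes described here are 10 core parts of the circadian clock: Clock, Arntl, Per1, Per2, Per3, Cry1, Cry2, Nr1d1, Nr1d2 and Dbp. The measure is the percent of DNA methylation at single CpG cytosines, in the span of each gene on mouse build GRCm38 and 5 kb on either side. A position was kept where it was listed in at least 2 of the 3 samples of every strain. This left 2057 of the 3850 positions that any sample listed around these genes, out of 1951628 positions kept in the whole data set. The share kept was 53.4% for the clock genes and 37.2% for all positions.

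The samples were hepatocytes, the cells that make up most of the liver, from 27 female mice aged 12 weeks. They came from 9 inbred strains with 3 mice each. CAST/EiJ, WSB/EiJ and PWK/PhJ are inbred from wild mice, and DBA/2J, 129S1/SvImJ, C57BL/6J, NZO/HlLtJ, A/J and NOD/ShiLtJ are laboratory strains. The study set histone marks, DNA methylation and transcript levels beside the genetic makeup of the strains, and the labels name no treatment and no control strain. Only its reduced representation bisulfite sequencing data are used here, a method that reads CpG-rich fragments made by the enzyme MspI. The hour at which livers were taken, which sets the phase of a clock, is not given in the sources used here.

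The clock is a feedback loop of transcription. CLOCK and BMAL1, the protein made from Arntl, pair on DNA motifs called E-boxes and switch on the Per and Cry genes, whose proteins then block that pair. NR1D1 and NR1D2, nuclear receptors also known as REV-ERBs, are switched on by the same pair and repress Arntl. DBP is an output factor that binds D-box motifs and drives daily rhythms of many liver genes. In mammals, CpG-rich promoters of active genes are usually unmethylated, while the CpGs inside genes and between genes are usually methylated.

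Promoter sequences of the clock genes are shown to mark which CpGs the assay read and where the clock's own motifs lie. They are the 250 bases before an annotated start, from RefSeq on build GRCm38.p6, written 5′ to 3′ on the strand of the gene. Capitals mark the CpGs of which at least 1 cytosine was kept. RefSeq promoter entries were matched for 9 of the 10 genes, and Per2 had none in the table used.
Cry1 (chr10:85185055-85185304, minus strand): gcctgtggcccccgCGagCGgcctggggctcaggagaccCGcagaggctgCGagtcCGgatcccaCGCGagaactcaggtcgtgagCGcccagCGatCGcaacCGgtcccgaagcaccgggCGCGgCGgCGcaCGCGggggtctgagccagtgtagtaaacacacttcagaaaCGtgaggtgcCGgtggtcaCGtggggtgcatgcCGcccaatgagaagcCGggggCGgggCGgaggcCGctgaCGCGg
Per3 (chr4:151044666-151044915, minus strand): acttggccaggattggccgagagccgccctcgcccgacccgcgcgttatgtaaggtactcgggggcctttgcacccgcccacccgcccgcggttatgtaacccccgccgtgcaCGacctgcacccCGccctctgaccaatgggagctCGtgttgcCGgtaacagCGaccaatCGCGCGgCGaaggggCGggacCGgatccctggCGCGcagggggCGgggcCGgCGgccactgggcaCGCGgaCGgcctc
Per1, first start (chr11:69098699-69098948, plus strand): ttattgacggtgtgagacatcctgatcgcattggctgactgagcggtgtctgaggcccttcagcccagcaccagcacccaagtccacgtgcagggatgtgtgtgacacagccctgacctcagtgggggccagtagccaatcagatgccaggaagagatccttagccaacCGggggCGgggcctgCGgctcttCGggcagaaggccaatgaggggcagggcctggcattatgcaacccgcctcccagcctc
Dbp (chr7:45704997-45705246, plus strand): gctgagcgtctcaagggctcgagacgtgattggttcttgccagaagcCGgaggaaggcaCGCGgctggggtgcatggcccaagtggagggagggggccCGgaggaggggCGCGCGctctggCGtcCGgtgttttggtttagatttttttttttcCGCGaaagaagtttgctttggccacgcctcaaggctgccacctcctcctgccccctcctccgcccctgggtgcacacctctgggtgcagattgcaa

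In the Cry1 promoter 27 of 31 CpGs were read, in Per3 19 of 33, in Dbp 11 of 16 and in the Per1 window 4 of 9. Windows not shown ran from 0 of 19 before the second Per1 start to 33 of 33 before a Clock start. Only 1 of 7 was read before the Nr1d1 start and 1 of 8 before another Clock start. The letters CACGTG, an E-box, which read the same on both strands, were searched in the windows from 250 bases before to 50 after each start. They occurred 60 bases before the Cry1 start and 166 bases before the first Per1 start, and in 7.15% of 32817 annotated promoter windows of the same length. The 2 cytosines of the Cry1 E-box had a mean of 0.190%, with 25 of 27 samples at 0 and a highest sample of 2.63%. No cytosine of the Per1 E-box was kept. The D-box letters TTATGTAA, searched on both strands, occurred 205 and 158 bases before the Per3 start, and in 0.935% of all windows. They hold no CpG. The form TTACGTAA, present in 0.119% of all windows, was not found in the windows of these 9 genes.

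The promoters of the clock genes, where read, were almost free of methylation in all 9 strains, except for part of the Per1 region. In 9 of 10 genes the region within 1 kb of an annotated start (for Per2, of the higher-coordinate end of its span) had a mean between 0.357 and 0.845% over the 27 samples. These 9 regions hold 1141 positions, of which the highest had a mean of 5.90%, in Per3. The highest value of any region in any sample was 2.09%, in Dbp, and the strain means of a region spanned at most 0.966 points, in Nr1d1. Over all protein-coding genes the median level of such regions was 1.19%, and 62.7% of 14715 lay under 2.5%. These regions, called promoter regions below, include both ends of each gene with no annotated start.

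Of the activators, the Clock promoter had 0.459% ± 0.103 (SD, n = 27 samples, 318 positions) and the Arntl promoter 0.571% ± 0.162 (147 positions). Of the repressors, the higher-coordinate end of Per2 had 0.357% ± 0.202 (83 positions) and the Per3 promoter 0.616% ± 0.239 (101 positions). Cry1 had 0.535% ± 0.163 (217 positions) and Cry2 0.408% ± 0.268 (38 positions). The REV-ERB promoters had 0.542% ± 0.459 in Nr1d1 (22 positions) and 0.464% ± 0.229 in Nr1d2 (163 positions). The output gene Dbp had 0.845% ± 0.527 (52 positions). All 9 lay below the level of 2.5% from which regions were tested, so they were not tested for strain.

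Per1, a repressor induced quickly by hormones and light, was the exception in level. Its promoter region had 17.2% ± 2.47 (SD, n = 27, 23 positions), with samples from 14.6 to 23.3%. This mean joins parts that differ: 19 positions from 69098868 to 69099390 on chromosome 11, around the first start, had 0.884%, and 4 positions from 69100689 to 69100742, past the second start, had 90.9%. Each sample's mean was taken over the positions listed in it. Of the 56 positions kept in the Per1 window, 43 were listed in all 27 samples. Sample values, strain means and the test of this region thus also depend on which positions of these parts were listed. Strain means of the region ran from 15.8% in 129S1/SvImJ to 18.9% in C57BL/6J, and limma's moderated F test gave an adjusted p of 0.767. Among all promoter regions 4.84% of those tested were called, and of the clock promoters 0 of 1 tested was called, with 0 at an unadjusted p under 0.05. Called means here a Benjamini-Hochberg adjusted p under 0.05 over the whole genome and strain means spanning at least 25 points.

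**Figure D1:**
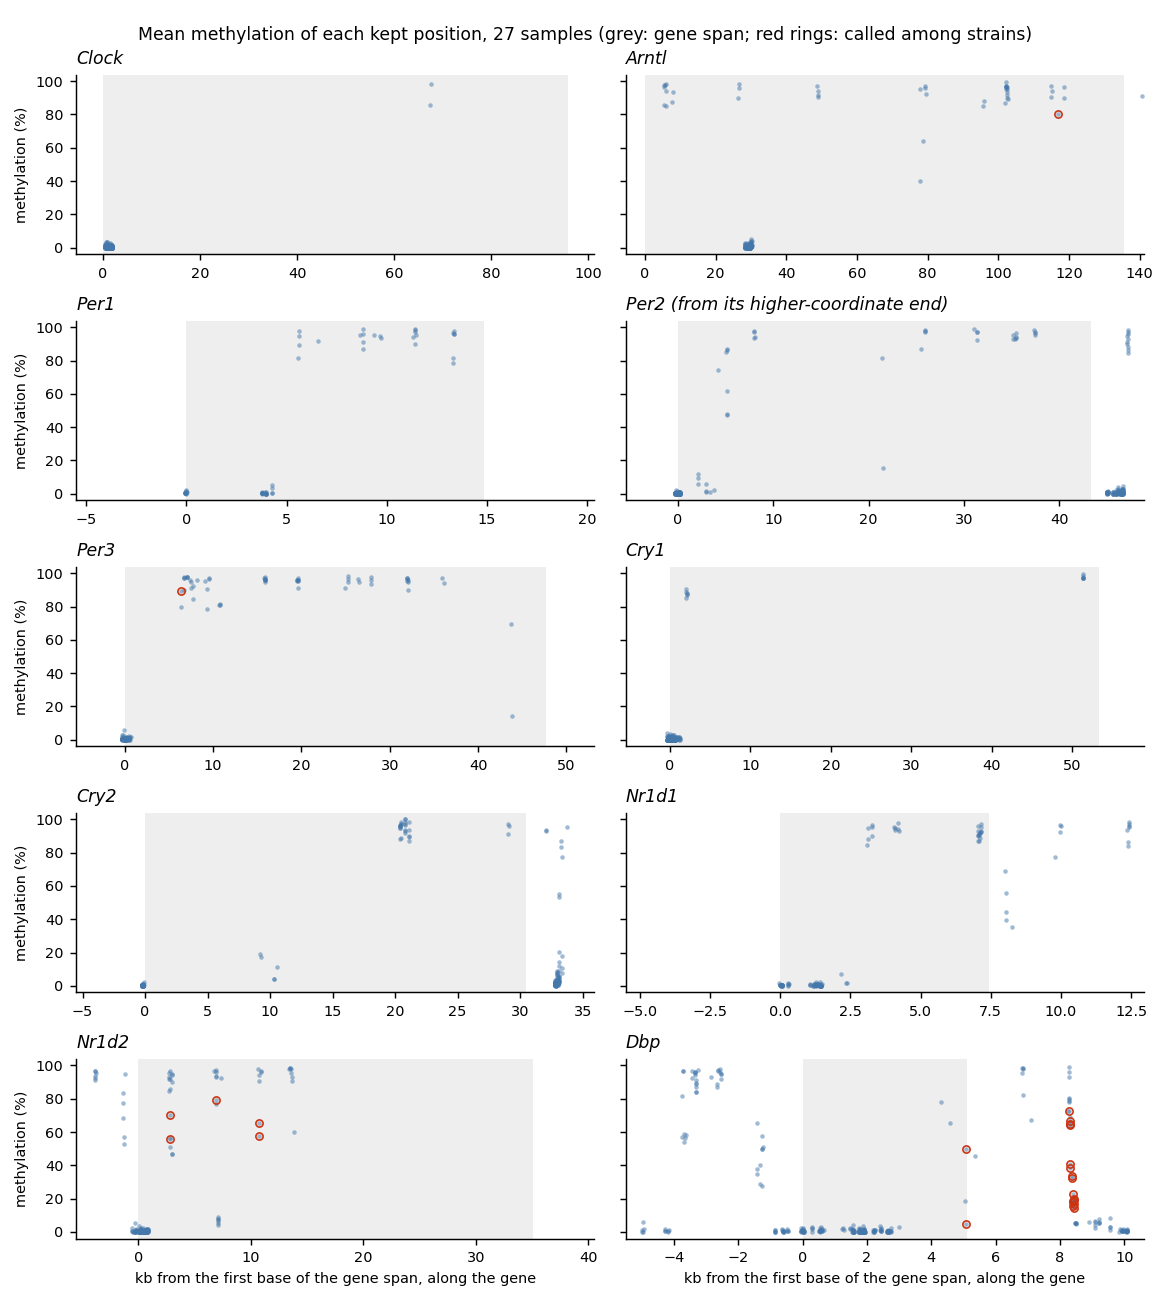
Mean percent methylation over 27 samples of each kept position (points) against distance in kb along each of the 10 genes, with the gene span in grey and positions called among strains ringed in red. The 9 promoter regions other than that of Per1 lie at 0.357 to 0.845%, and 311 of the 2057 positions lie above 80%.

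Of the 2057 positions, 1622 (78.9%) had a mean under 5%, against 57.4% of all positions kept. A mean above 80% was found at 311 (15.1%, against 26.5%), and a mean of 20 to 80% at 69 (3.35%, against 10.001%). The number kept ran from 56 in Per1 to 320 in Clock, so the genes were not read to the same extent.

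Outside the promoters, 8 of 9 gene bodies had a mean of 33.3% or more, and that of Dbp had 2.42%. Per3 had the highest body level, 92.1% ± 1.29 (SD, n = 27, 59 positions), followed by Per1 with 89.2% ± 2.00 (22 positions), Cry2 with 81.6% ± 2.72 (32 positions) and Nr1d2 with 74.2% ± 2.35 (45 positions). Per2 had 70.2% ± 3.32 (39 positions), Arntl 67.6% ± 1.39 (58 positions) and Cry1 58.9% ± 1.504 (19 positions). The low runs around the starts of Arntl and Cry1 reach past the 1 kb limit, so these means join parts that differ. In Cry1, 6 positions at chr10:85133731-85133802 had 97.7% and 6 at chr10:85182907-85183027 had 87.8%, while the lowest body position had 0%. In Arntl the lowest body position had 0.154%, while body runs apart from that around the start lay at 67.7% or above. The median over all gene bodies was 82.1%. Clock had too few positions outside its promoter for a body value.

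The genes of Nr1d1 and Dbp had the lowest body levels. Nr1d1 had 33.3% ± 1.34 (75 positions), of which 45 at chr11:98773899-98774320 had 0.561%, with no sample above 1.51%. The other runs of positions inside Nr1d1 and past its promoter lay above 90%, except 3 positions at chr11:98772999-98773197 with 3.33%. The Dbp body had 2.42% ± 0.700 (122 positions), with samples from 1.39 to 4.13%. A run of 117 positions at chr7:45706316-45708101, inside Dbp, had a mean of 0.683%. The low level of the promoter was thus found at most of the positions read in the rest of Dbp as well.

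Shorter runs of low or intermediate level lay in other clock genes, singled out after their values were seen. Inside Nr1d2, 14 positions at chr14:18231724-18232359 had 54.7% ± 3.64 (SD, n = 27), with strain means from 49.1% in NZO/HlLtJ to 59.0% in DBA/2J. Inside Per2, 6 positions at chr1:91454217-91454291 had 69.2%, 4 at chr1:91456013-91456431 had 2.16% and 3 at chr1:91457220-91457260 had 10.04%. These runs overlap Gm35591. Pairs of positions in Per2 had 48.5% at chr1:91437797-91437925 and, also overlapping Gm35591, 35.2% at chr1:91455171-91455537. Pairs had 41.9% at chr4:151000909-151001000 in Per3, 67.7% at chr7:113256330-113256399 in Arntl and 72.2% at chr7:45709388-45709684 in Dbp. These pairs overlap Uts2, Gm33721 and Sphk2, in that order. In Nr1d2, 16 positions at chr14:18236119-18236383 had 77.8%. Inside Cry2, where D930015M05Rik overlaps, 3 positions at chr2:92423554-92423740 had 7.65% and 2 at chr2:92424844-92424880 had 18.2%. Past the end of Nr1d1, where its neighbour Thra overlaps the window, 5 positions at chr11:98767111-98767371 had 49.2%. Their 1 kb tile ranged from 35.5% in DBA/2J to 69.9% in NOD/ShiLtJ, with single samples from 18 to 81.4% (adjusted p = 0.271, limma's moderated F test).

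No body of a clock gene was called among strains. Of 8 bodies tested with limma's moderated F test, 0 were called and 1 had an unadjusted p under 0.05, against 2.61% called and 39.3% with an unadjusted p under 0.05 among all bodies tested. Strain means spanned 1.45 points in Nr1d1 to 6.47 points in Nr1d2. The Nr1d2 body came closest, with 71.1% in NZO/HlLtJ and 77.6% in A/J (adjusted p = 0.0732). For the others the adjusted p lay at 0.365 or higher. The Dbp body was below the tested range, and its strain means ran from 1.61% in CAST/EiJ to 3.20% in 129S1/SvImJ.

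**Figure D2:**
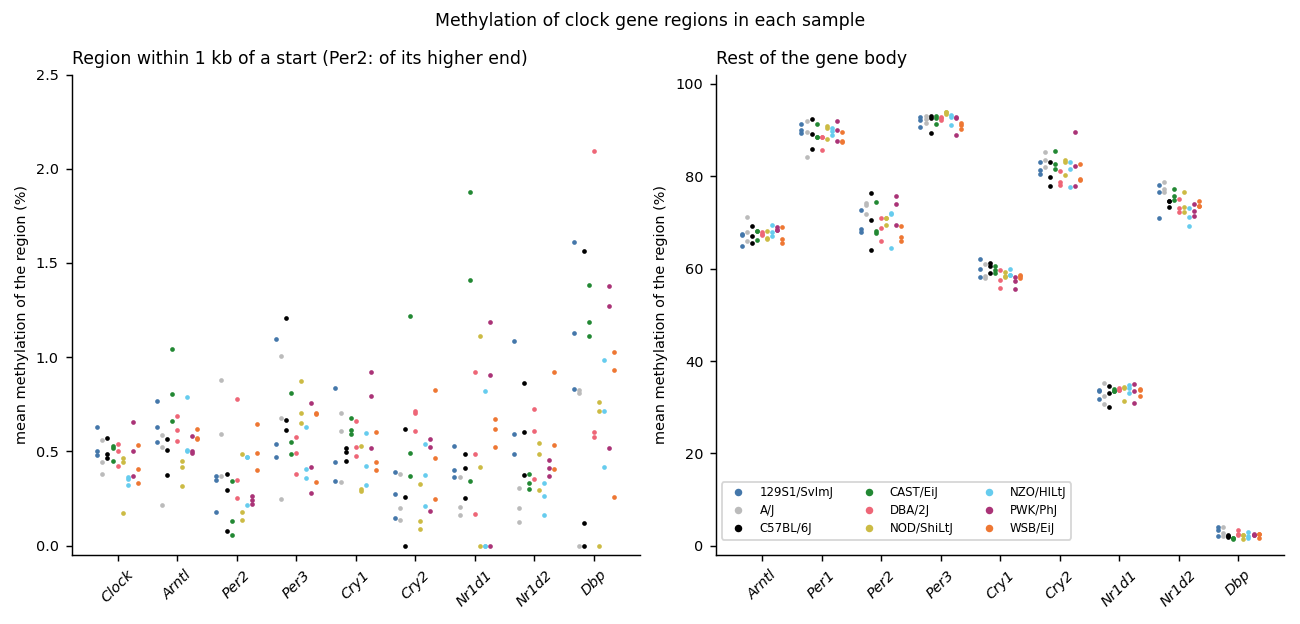
Mean percent methylation of the promoter regions of 9 clock genes (left, an axis to 2.5%; Per1 is left out) and of 9 gene bodies (right), with 1 point per sample coloured by strain. Strain means span at most 0.966 points in a promoter and 6.47 points in a body, and no promoter region shown exceeds 2.09% in any sample.

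In the flanks, the 5 kb before and after each gene, 0 of 6 clock regions tested were called, against 5.66% of all flanks tested. With limma's moderated F test 3 had an unadjusted p under 0.05, against 36.9% of all flanks tested, and 1 an adjusted p under 0.05, against 2094 of 8165. That one was the flank after Dbp (73 positions), with a mean of 26.98% ± 6.498 (SD, n = 27). It read 34.7, 37.9 and 40.01% in 129S1/SvImJ, 36.5, 31.4 and 37.2% in PWK/PhJ and 30.1, 31.01 and 36.2% in DBA/2J. All 9 of these samples lay at 30.1% or above. The other strains read 25.8, 21.2 and 19.8% in A/J, 18.7, 27.8 and 21.5% in C57BL/6J and 19.7, 20.02 and 22.3% in CAST/EiJ. The last 3 strains read 20.9, 24.4 and 26.8% in NOD/ShiLtJ, 21.6, 23.99 and 23.1% in NZO/HlLtJ and 23.7, 27.6 and 24.3% in WSB/EiJ. No sample of those 6 strains exceeded 27.8%. Here and below, sets of strains were drawn after their values were seen, and their separation was not tested. The strain means spanned 16.9 points (adjusted p = 5.68e-05), which is under the 25 points needed for a call.

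In 1 kb tiles of the genome, 2 of 34 clock tiles tested were called, against 7.75% of all tiles tested. Both belong to Dbp by position and both lie inside its neighbours. One is in Sphk2, the gene of sphingosine kinase, which overlaps the end of Dbp, and the other in Car11, a carbonic anhydrase-related gene that precedes it.

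The Sphk2 tile, chr7:45713001-45714000, holds 31 positions. It read 61.8, 64.1 and 68.4% in 129S1/SvImJ, 63.1, 50.5 and 61.8% in PWK/PhJ and 52.7, 52.8 and 60.7% in DBA/2J. These 3 strains were the highest, between 50.5 and 68.4% over their 9 samples. In other strains it read 34.6, 40.9 and 37.5% in WSB/EiJ, 34.3, 37.4 and 40.7% in NOD/ShiLtJ and 38.5, 33.96 and 38.9% in A/J. The lowest strains read 33.8, 34.4 and 33.1% in NZO/HlLtJ, 27.2, 42.1 and 31.5% in C57BL/6J and 27.2, 26.2 and 32.4% in CAST/EiJ. The 18 samples of the lower 6 strains lay between 26.2 and 42.1%, below all 9 samples of the higher 3.

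As strain means, 129S1/SvImJ had 64.8% ± 3.36 (SD, n = 3), PWK/PhJ 58.5% ± 6.92 and DBA/2J 55.4% ± 4.59. The lowest was CAST/EiJ with 28.6% ± 3.34. The means spanned 36.2 points, and limma's moderated F test gave an adjusted p of 1.08e-06. Neighbours in the order of means overlapped in their samples, except DBA/2J and the next lower strain, WSB/EiJ.

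The called positions lay in a short run. Positions before it were not called, which does not show that the strains were alike there. In this tile 16 positions were called, all from 45713388 to 45713539 on chromosome 7, a span of 152 bp that begins 3185 bp past the end of Dbp and lies 1668 to 1819 bp downstream of the nearest annotated start of Sphk2. The strain 129S1/SvImJ had the highest mean at 14 of the 16 and CAST/EiJ the lowest at 8. Levels within the run are given as a description, since it was delimited by its calls.

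The run has 2 parts. In the first, 8 positions from 45713388 to 45713407, the means were 88.3% ± 5.80 in 129S1/SvImJ (SD, n = 3), 84.2% ± 7.12 in PWK/PhJ and 84.04% ± 6.42 in DBA/2J. The remaining strains lay between 44.1% in CAST/EiJ and 63.02% in WSB/EiJ. Single positions of this part went lower: 45713407 had means of 4.76% in C57BL/6J and 12.0% in CAST/EiJ. Of these 8 positions 45713389 and 45713397 were not called. Position 45713389 had strain means of 91.7 to 100%, while the adjacent called position 45713388 ran from 44.7% in CAST/EiJ to 100% in 129S1/SvImJ.

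In the second, 10 positions from 45713477 to 45713539, most strains had little methylation. The samples were 57.5, 74.3 and 68.6% in 129S1/SvImJ, 51.04, 26.7 and 47.1% in PWK/PhJ and 44.5, 34.6 and 41.1% in DBA/2J. No sample of the other 6 strains exceeded 11.3%, and their means ran from 4.93% in CAST/EiJ to 8.57% in NZO/HlLtJ. The highest of the strains, 129S1/SvImJ, did not overlap with PWK/PhJ, whose highest sample was 51.04%. Just beyond, 6 positions from 45713580 to 45714000 had strain means between 3.71% in A/J and 7.15% in PWK/PhJ, where the strains with a high level no longer stood apart.

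**Figure D3:**
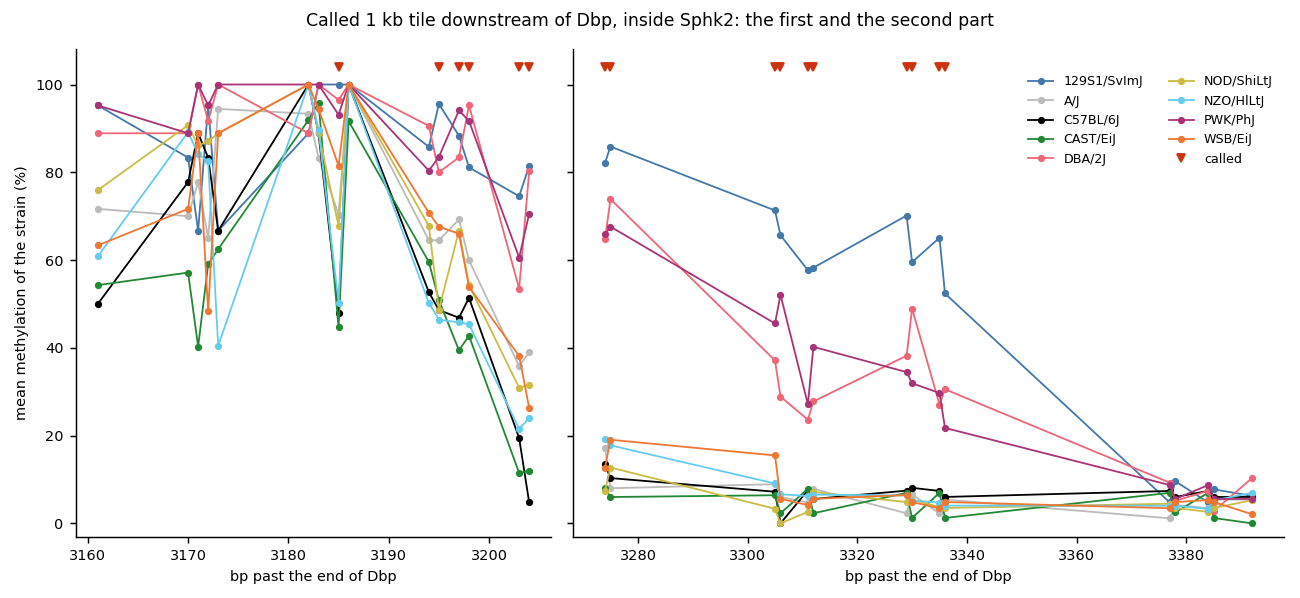
Mean percent methylation of each strain (lines, 2 or 3 samples each) at single positions against distance in bp past the end of Dbp; the last of the tile's 31 positions is not drawn and triangles mark the 16 called positions. In the right panel 129S1/SvImJ, PWK/PhJ and DBA/2J lie above the other 6 strains from 3274 to 3336 bp and join them past that point.

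The positions of this run with the largest ranges were 45713478 and 45713407. Position 45713407 read 85.7, 78.6 and 80% in 129S1/SvImJ, 80, 75 and 85.7% in DBA/2J and 75, 50 and 86.7% in PWK/PhJ. It read 53.8, 35.7 and 27.3% in A/J, 33.3, 36.4 and 25% in NOD/ShiLtJ and 35.7, 25 and 18.2% in WSB/EiJ. In the lowest strains it read 16, 17.6 and 38.5% in NZO/HlLtJ, 6.67, 11.1 and 18.2% in CAST/EiJ and 0, 14.3 and 0% in C57BL/6J. The range of strain means was 76.7 points (adjusted p = 1.29e-05, limma's moderated F test), and C57BL/6J was the lowest. At this position the highest A/J sample, 53.8%, lay above the lowest PWK/PhJ sample, 50%.

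Position 45713478 read 100, 90.9 and 66.7% in 129S1/SvImJ, 75, 80 and 66.7% in DBA/2J and 90.9, 33.3 and 78.6% in PWK/PhJ. It read 21.1, 11.1 and 25% in WSB/EiJ, 25.8, 11.8 and 15.8% in NZO/HlLtJ and 20, 18.2 and 0% in NOD/ShiLtJ. The remaining samples were 0, 14.3 and 16.7% in C57BL/6J, 6.25, 6.67 and 11.1% in A/J and 11.1, 0 and 6.90% in CAST/EiJ. Here no sample of the lower 6 strains exceeded 25.8%, and the lowest PWK/PhJ sample was 33.3% (range 79.9 points, adjusted p = 0.00019, limma's moderated F test).

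The Car11 tile, chr7:45703001-45704000, holds 10 positions. It read 63.2, 59.8 and 62.7% in DBA/2J, 58.5, 46.6 and 61.2% in 129S1/SvImJ and 52.9, 53.1 and 44.9% in PWK/PhJ. Its middle strains read 44.3, 67.5 and 36.3% in NZO/HlLtJ, 61.8, 30.98 and 32.1% in A/J and 40.4, 48.2 and 32.8% in C57BL/6J. The lowest read 33.5, 46.03 and 36.1% in CAST/EiJ, 25.7, 36.3 and 39.99% in NOD/ShiLtJ and 30.8, 28.4 and 17.6% in WSB/EiJ. Each strain overlapped with the next in the order of means, and single samples of A/J and NZO/HlLtJ lay above 61%, so the strains did not fall into separate groups. The means ran from 25.6% ± 7.02 in WSB/EiJ to 61.9% ± 1.87 in DBA/2J (SD, n = 3), a range of 36.3 points, with an adjusted p of 0.0201 by limma's moderated F test. The call was lost without WSB/EiJ replicate 4 (adjusted p = 0.0593).

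The Car11 tile had the largest range of the clock tiles called. Among the 4506 tiles called in the genome, those overlapping a protein-coding gene whose 9 strain means were most like it lay in Nkx2-2 (Pearson r = 0.846), Bik (r = 0.841) and Papln (r = 0.818), which are on other chromosomes. These values describe 9 strain means that share the same mice.

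Across single positions, 25 of 459 tested were called, 5.45%, against 4.33% of all positions tested. An unadjusted p under 0.05 was found at 74 (16.1%, against 15.4%). The median range of strain means was 15.4 points, against 17.0 for all, and the median SD within strains was 8.59 points, against 9.14. The calls fell in 4 genes: 18 in the Dbp window, 5 in Nr1d2, 1 in Arntl and 1 in Per3. Of the 18, 16 lie in the run of 152 bp inside Sphk2. With the spans of the genes alone, without the 5 kb on either side, 9 of 278 were called. At 0 of the 459 did all samples of a strain stand at least 25 points apart from all others, against 0.53% of all positions tested.

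The 2 Dbp calls inside the gene lie at its very end, at 45710170 and 45710171, where it overlaps Sphk2. Position 45710171 read 100, 100 and 87.5% in DBA/2J, 100, 66.7 and 75% in PWK/PhJ and 20, 83.3 and 100% in A/J. It read 33.3, 66.7 and 100% in 129S1/SvImJ, 57.1, 75 and 50% in NZO/HlLtJ and 42.9, 33.3 and 50% in WSB/EiJ. The lowest strains read 0, 50 and 0% in C57BL/6J, 33.3, 0 and 0% in NOD/ShiLtJ and 0, 16.7 and 0% in CAST/EiJ. Samples of A/J covered most of the scale, from 20 to 100%. Its range was 90.3 points (adjusted p = 0.00912, limma's moderated F test, 27 samples), and the call was lost with no filter on the mean (adjusted p = 0.0560). The adjacent position 45710170, listed in 24 samples, was at 0 in most of them and had its highest mean, 28.9%, in A/J (adjusted p = 0.0103).

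Nr1d2, a REV-ERB gene, had 5 called positions, all inside the gene. Position 18228362 on chromosome 14 read 22.2, 16.7 and 27.3% in 129S1/SvImJ, 23.5, 46.2 and 25% in DBA/2J and 41.7, 23.1 and 31.6% in PWK/PhJ. It read 84.6, 43.8 and 35% in CAST/EiJ, 100, 100 and 62.5% in C57BL/6J and 76.9, 87.5 and 100% in NZO/HlLtJ. It read high in the remaining strains: 100, 94.4 and 75% in A/J, 80, 100 and 90% in NOD/ShiLtJ and 88.9, 91.7 and 100% in WSB/EiJ. The 9 samples of 129S1/SvImJ, DBA/2J and PWK/PhJ lay at 46.2% or below, and CAST/EiJ overlapped with them. The range was 71.5 points (adjusted p = 0.00158, limma's moderated F test).

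The adjacent position 18228363, the other strand of that CpG, gave a like order. It read 9.09, 36.8 and 27.3% in 129S1/SvImJ, 35, 20 and 20% in DBA/2J and 29.4, 6.25 and 35.3% in PWK/PhJ. In the middle it read 33.3, 43.8 and 52.2% in CAST/EiJ, 92.3, 46.2 and 76.9% in A/J and 73.3, 73.3 and 68.8% in NZO/HlLtJ. The highest strains read 75, 83.3 and 88.9% in C57BL/6J, 64.3, 100 and 93.3% in WSB/EiJ and 100, 70 and 100% in NOD/ShiLtJ. No sample of the lowest 3 strains exceeded 36.8% (range 66.3 points, adjusted p = 0.00195, limma's moderated F test).

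The 1 kb tile around this CpG, chr14:18228001-18229000, holds 7 positions, these 2 included. It read 66.7, 75.3 and 74.9% in 129S1/SvImJ, 75.98, 69.3 and 75.8% in PWK/PhJ and 74.00, 77.3 and 72.3% in DBA/2J. Those 9 samples lay between 66.7 and 77.3%. It read 87.3, 83.04 and 81.4% in CAST/EiJ, 92.1, 89.2 and 91.01% in C57BL/6J and 90.01, 91.6 and 91.7% in NZO/HlLtJ. The others read 97.9, 88.8 and 89.3% in A/J, 94.5, 94.3 and 97.1% in NOD/ShiLtJ and 90.5, 98.8 and 97.3% in WSB/EiJ. CAST/EiJ stood between the lower 3 and the upper 5 strains, overlapping neither. The range was 23.2 points, under the 25 needed for a call, with an adjusted p of 9.44e-06 by limma's moderated F test. Without WSB/EiJ replicate 2 the range was 25.7 points and the tile was called (adjusted p = 1.60e-06).

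The same 3 strains, 129S1/SvImJ, DBA/2J and PWK/PhJ, were thus lowest in the Nr1d2 tile on chromosome 14 and highest in the Sphk2 tile past Dbp on chromosome 7. Whether these patterns are related was not tested.

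Position 18236281 of Nr1d2 was at 0, 0 and 0% in C57BL/6J. It read 100, 80 and 83.3% in 129S1/SvImJ, 75, 58.3 and 100% in A/J and 60, 80 and 88.9% in DBA/2J. It read 100, 77.8 and 50% in WSB/EiJ, 55.6, 62.5 and 76.9% in CAST/EiJ and 71.4, 16.7 and 50% in PWK/PhJ. The remaining strains read 71.4, 25 and 40% in NOD/ShiLtJ and 0, 28.6 and 50% in NZO/HlLtJ. C57BL/6J was lowest, and 1 NZO/HlLtJ sample was also at 0 (range 87.8 points, adjusted p = 0.00485, limma's moderated F test). The adjacent position 18236280 had 65.6% in C57BL/6J, with its lowest mean, 47.8%, in PWK/PhJ and its highest, 100%, in 129S1/SvImJ (adjusted p = 0.0406). The C57BL/6J files name the mitochondrial chromosome in another way than those of the other 8 strains, so a difference in processing cannot be told apart from this strain. The fifth call, 18232192, ran from 58.5% in NZO/HlLtJ to 100% in CAST/EiJ (adjusted p = 0.0203).

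**Figure D4:**
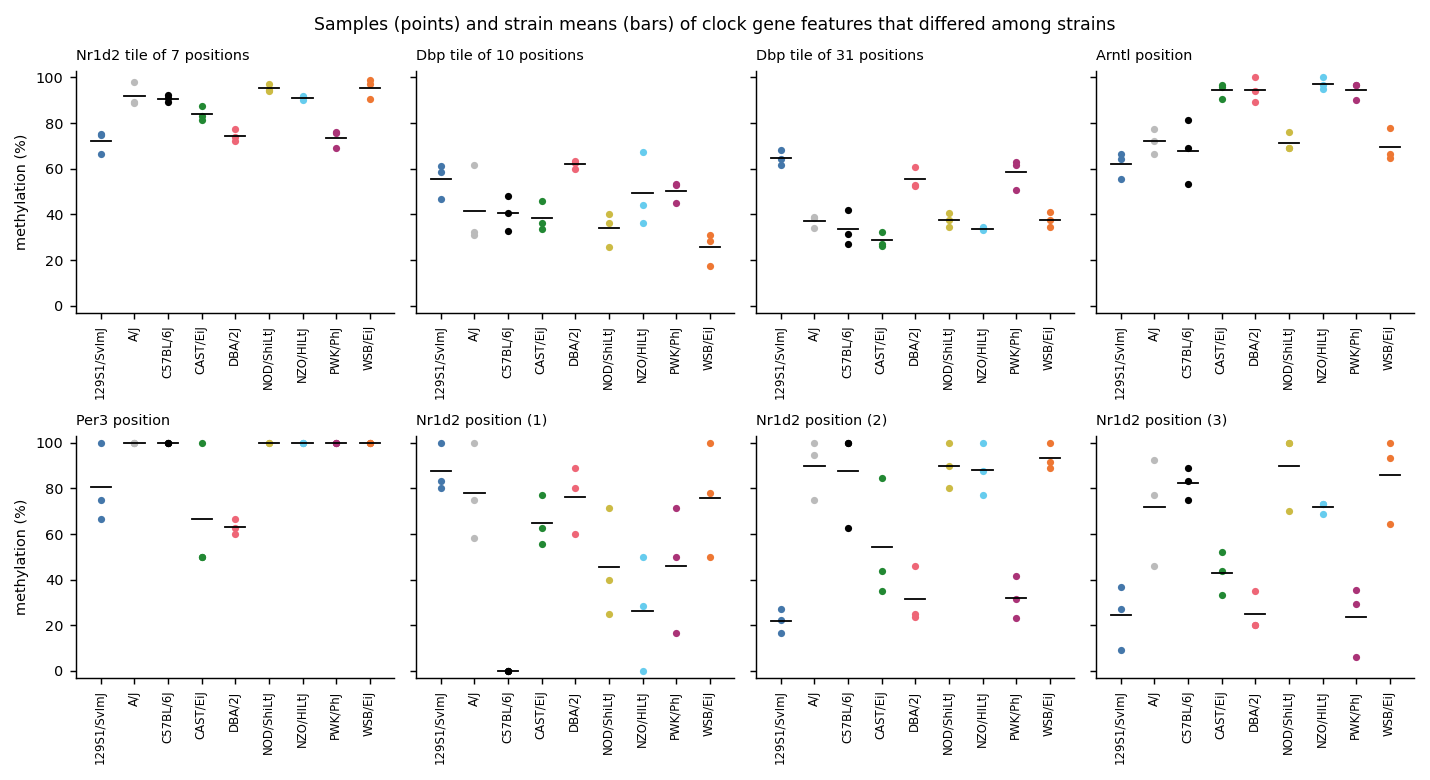
Percent methylation of each sample (points) with strain means (bars) for 3 tiles with an adjusted p under 0.05 and for the named positions of Arntl, Per3 and Nr1d2; Nr1d2 positions 1 to 3 are 18236281, 18228362 and 18228363. In the tile of 31 positions the samples of 129S1/SvImJ, DBA/2J and PWK/PhJ lie above 50%, and in the tile of 7 positions they are the lowest.

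Arntl, the gene of BMAL1, had 1 called position, 113295343 on chromosome 7, inside the gene and far from its promoter. It read 100, 96.7 and 95% in NZO/HlLtJ, 89.3, 94.1 and 100% in DBA/2J and 96.6, 96.8 and 90% in PWK/PhJ. CAST/EiJ read 90.5, 95.7 and 96.8%, so these 4 strains lay at 89.3% or above. The others read 66.7, 72.2 and 77.4% in A/J, 69.2, 69.2 and 76% in NOD/ShiLtJ and 66.7, 64.5 and 77.8% in WSB/EiJ. C57BL/6J read 69.2, 81.25 and 53.3% and 129S1/SvImJ 66.7, 55.6 and 64.3%. No sample of these 5 strains, a set drawn after the values were seen, exceeded 81.25% (range 35.1 points, adjusted p = 0.000296, limma's moderated F test).

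Per3, a repressor whose loss affects the clock only mildly, had 1 called position, 151038383 on chromosome 4. DBA/2J read 66.7, 62.5 and 60%, CAST/EiJ 50, 100 and 50% and 129S1/SvImJ 100, 75 and 66.7%. Every listed sample of the other 6 strains was at 100%. It was listed in 26 samples, and the test dropped the missing NOD/ShiLtJ sample (range 36.9 points, adjusted p = 0.0144, limma's moderated F test). With no filter on the mean the call was lost (adjusted p = 0.0508).

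Clock, Per1, Per2, Cry1, Cry2 and Nr1d1 had 0 called positions, of 5, 22, 47, 15, 73 and 42 tested. Their windows hold other genes as well. The low flank of Per2, with 6.86% ± 0.549 (150 positions, adjusted p = 0.320 by limma's moderated F test), overlaps Hes6, and that after Cry2, with 8.46% ± 1.77 (100 positions, adjusted p = 0.0909), overlaps Mapk8ip1.

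Of 24 further genes of the clock pathway, 22 had a promoter region, or for genes with no annotated start a region at an end. Of their 24 regions 19 lay under 2.5%, against 62.7% of all promoter regions. The median was 0.661% for these regions and 72.3% for their bodies. Of 5 of these regions tested 1 was called, against 4.84% of all promoter regions tested, and of 18 bodies 0, against 2.61% of all bodies tested. That call was the lower-coordinate end of Csnk1d, a kinase that marks PER proteins for turnover. No start of Csnk1d is in the table used, so both of its ends were regions. The higher-coordinate end (163 positions) had 0.558% ± 0.251 (SD, n = 27), with no sample above 1.33%, while the lower-coordinate end had a mean of 23.7%. Its 13 positions at chr11:120958116-120958263 read 65.9, 67.04 and 69.7% in PWK/PhJ, above every sample of the other 8 strains, of which the highest was 34.3% in WSB/EiJ. The lowest mean was 6.00% in C57BL/6J (range 61.5 points, adjusted p = 2.35e-07, limma's moderated F test).

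Between 2904787 and 3156965 positions were listed per sample, and no coverage was given, so the depth behind each percent is unknown. Of the 2373 clock gene positions that every C57BL/6J sample listed, 5.86% were absent from all CAST/EiJ samples and 6.11% from all PWK/PhJ samples, against 12.1 and 12.0% over the genome. For the other strains the share was 1.26 to 3.20%, against 3.74 to 5.49% over the genome. In Arntl 41 of 271 were absent from CAST/EiJ, 34 from PWK/PhJ, 30 from DBA/2J and 27 from NZO/HlLtJ. The other strains compared lacked 9 to 12. In the Dbp window 16 of 335 were absent from DBA/2J, 13 from 129S1/SvImJ and 12 from PWK/PhJ, and 0 to 5 from the rest. In Nr1d2 7 of 227 were absent from PWK/PhJ and 4 from DBA/2J, and 0 or 1 from the rest. In Per3 29 of 212 were absent from PWK/PhJ and 21 from CAST/EiJ, and 3 to 11 from the rest. Sequence variants between strains can change whether a CpG is listed and what percent it gets, and their part in the differences above was not tested. Of 10 hepatocyte marker genes, 4 had a promoter region, with 0.805 to 5.53%. No promoter region was listed for 6 leukocyte and Kupffer cell or 3 endothelial markers, so the purity of the hepatocytes could not be read from them, while 3 of 3 stellate cell markers had 0.628 to 13.6% and 1 of 3 cholangiocyte markers 11.4%.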

How the data were processed

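The deposited files list CpG positions with a percent methylation per sample, in percent from 0 to 100 per the file headers, with no read counts. Per the submitters' processing notes, Trim Galore 0.6.3, Bowtie2 and Bismark 0.22 were used with build GRCm38 (mm10); any coverage filter is not given in the sources used here. Of 263290 listed positions inside RefSeq promoter sequences of GRCm38.p6, 99.96% fell on a CpG.

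A test on read counts was planned. Since the files hold percents, limma's moderated F test was used on log2((percent + 5)/(100 - percent + 5)), with strain as a factor. It has 8 numerator and, with no sample missing, 18 residual degrees of freedom. To the residual ones the variance prior added 4.52 for single positions. Missing samples were dropped. Features with a mean of 2.5 to 97.5% were tested: positions, regions within 1 kb of a start, gene bodies, 5 kb flanks and 1 kb tiles, each region with at least 5 positions. P-values were Benjamini-Hochberg adjusted over all features of a kind in the genome. The members, lists and naming rule were chosen with earlier results of these data known. Named are all called regions, and up to 3 called tiles and 3 called positions per gene with the largest range. Gene spans came from RefSeq, and starts were available for 17491 of 21883 protein-coding genes. For genes with no start, regions at both ends were used and counted with the promoter regions.

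The test was computed in Python 3.11.15 and compared with R 4.3.3 and limma 3.58.1: at 48704 complete positions F differed by at most 9.5e-15 in relative size, and 14 fell on another side of the threshold, which is adjusted over both kinds of positions together. On 11296 positions with a missing sample, where limma's F uses a shared approximation, 58 fell on another side of the threshold. In simulated data 50.0% of positions shifted by 30 points in 1 strain were called, 85.0% at 50 points, 95.1% at 70 points and 0.191% of 53978 unshifted positions. The labels number the mice but do not say that a number pairs mice across strains. Alternatives covered the offset, the scale, filters, thresholds, region sizes, left-out samples and strains, and a replicate block. The flanks of the further pathway genes are not reported here.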

Additional observations from a re-analysis of the deposited data

How the results depend on the processing

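Of the named tiles, regions and positions, 402 recomputed adjusted p-values kept their side of 0.05 and 6 did not (limma's moderated F test). The 25 points needed for a call are not part of this count. For the setting without the C57BL/6J strain, it holds no value for Nr1d2 position 18236281 or Dbp position 45713407, where that strain was lowest. With no filter on the mean, and with a replicate block, the Per3 position 151038383 had adjusted p-values of 0.0508 and 0.0515 and the Dbp position 45710171 of 0.0560 and 0.0662 (limma's moderated F test). With the block the Car11 tile of the Dbp window had 0.0682, which left 1 called clock tile in place of 2, and 19 positions were called in place of 25. Deviations of mice of the same number had correlations of -0.00521 to 0.00671 over 76 pairs. Those of other numbers had -0.00733 to 0.00640 over 248 pairs. Whether mice of a number shared a preparation is not stated, and these values cannot show it.

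With a minimum range of 10 points 1 flank was called, that after Dbp, and with 50 points 0 tiles were. With a minimum gap of 10 points 1 position stood apart, 45713514 past Dbp, in 129S1/SvImJ. Within gene spans alone 9 positions were called. Leaving out each sample in turn gave 22 to 26 called positions, 1 to 3 called tiles, 0 to 0 called promoters, bodies and flanks, and 0 to 1 positions set apart; the 1 tile was without WSB/EiJ replicate 4 and the 3 without WSB/EiJ replicate 2. The set-apart count was 1 without 129S1/SvImJ replicate 1, A/J replicate 1 or 3, C57BL/6J replicate 2, CAST/EiJ replicate 1 or 5, or NZO/HlLtJ replicate 3. The adjusted p of the Sphk2 tile stayed under 0.05 in all 35 alternatives that recompute it (1.35e-07 to 4.27e-05), and its range of 36.2 points is under the minimum of 50 points. The causes were not tested. Coverage is unknown, so the precision of a single percent cannot be given.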

Other observations

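The strands of a CpG are listed as separate positions. Among the tested clock gene positions there were 123 adjacent pairs, and their means differed by a median of 2.15 points. Both positions were called in 10 pairs and only 1 of them in 2 pairs. The pair at 45710170 and 45710171, at the end of Dbp, had means of 5% and 49.7% over the listed samples, far more than that median. The pair at 18236280 and 18236281, in Nr1d2, had 65.6 and 0% in C57BL/6J, but 100 and 87.8% in 129S1/SvImJ. The cause was not tested.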
